A study of Mus musculus with 8 samples.

Results

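The genes described here encode the ligands and receptors of the 4 classical axon guidance systems, the ephrins with their Eph receptors, the semaphorins with plexins and neuropilins, the Slits with Robo receptors, and the netrins with Dcc, Neo1 and Unc5 receptors. They were chosen by symbol, as protein-coding genes whose name starts with Efna, Efnb, Epha, Ephb, Sema, Plxna to Plxnd, Robo or Unc5, with Slit or Ntn and a number, or as Dcc, Neo1, Nrp1 or Nrp2. This rule found 68 of the 15538 genes in the expression table, 34 ligands and 33 receptors. The remaining gene, Unc50, shares only the prefix Unc5, encodes an unrelated membrane protein and was counted in neither class. Another 4 annotated genes that follow the rule (Epha6, Epha8, Slit3 and Unc5cl) were not analysed here.

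Gene expression was measured by RNA sequencing of polyadenylated RNA from primary mouse neurospheres, floating cultures of embryonic neural stem cells from brain. By the labels, 4 libraries had the genotype Phf23-/- and 4 were wild type (WT), with no treatment, age or strain given and the same cell type and tissue for all 8. Phf23 encodes a PHD-finger protein of chromatin, and the study asked how its loss blocks differentiation of these cells. Nothing in the labels says how the Phf23-/- allele was made or that replicates came from separate cultures or embryos, so each p-value reflects the spread of these 8 libraries alone and that spread may be technical.

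Guidance ligands and receptors act between neighbouring cells or over short distances and change the cytoskeleton of the responding cell. Ephrin-A ligands are held by a lipid anchor and ephrin-B ligands span the membrane, and both can also signal back into the cell that carries them. Class 3 semaphorins are secreted and bind neuropilins, which pair with A-type plexins, whereas most membrane semaphorins bind plexins directly. Slits are the ligands of Robo receptors, and netrins bind Dcc, Neo1 and Unc5 receptors. In embryonic brain the same families also act in neural stem cells, where Eph, Slit and semaphorin signals are known to affect division, position and migration of progenitors.

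In the sequences below, the promoter windows of 4 members are given because these were the members whose difference between genotypes was called in every fit tried: Epha3, Epha5 and Plxnc1, which were lower in libraries labelled Phf23-/-, and Ephb1, which was higher. Each window runs from 250 bases before to 50 bases after the gene's start in RefSeq (GRCm38.p6), 5′ to 3′ on the gene's strand, and capitals mark CG pairs.
Epha3, chr16:63864126-63864425, minus strand: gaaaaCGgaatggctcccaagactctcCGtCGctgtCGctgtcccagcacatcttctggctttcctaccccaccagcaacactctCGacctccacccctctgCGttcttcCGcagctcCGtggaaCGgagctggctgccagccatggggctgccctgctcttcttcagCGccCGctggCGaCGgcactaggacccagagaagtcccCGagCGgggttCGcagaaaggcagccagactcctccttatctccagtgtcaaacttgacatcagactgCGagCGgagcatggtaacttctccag
Epha5, chr5:84417333-84417632, minus strand: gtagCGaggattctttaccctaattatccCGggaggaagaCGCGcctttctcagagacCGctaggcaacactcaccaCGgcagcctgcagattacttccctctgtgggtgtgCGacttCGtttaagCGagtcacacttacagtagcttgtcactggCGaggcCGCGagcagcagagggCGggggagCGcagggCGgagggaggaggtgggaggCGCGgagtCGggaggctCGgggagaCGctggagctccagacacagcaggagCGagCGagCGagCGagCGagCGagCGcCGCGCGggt
Plxnc1, chr10:94944796-94945095, minus strand: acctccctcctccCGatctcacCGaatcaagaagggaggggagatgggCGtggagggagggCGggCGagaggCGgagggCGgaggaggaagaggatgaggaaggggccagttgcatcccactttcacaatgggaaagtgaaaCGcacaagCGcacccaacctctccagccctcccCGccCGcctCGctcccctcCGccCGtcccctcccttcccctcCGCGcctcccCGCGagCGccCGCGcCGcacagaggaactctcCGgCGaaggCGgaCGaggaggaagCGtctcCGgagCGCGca
Ephb1, chr9:102354644-102354943, minus strand: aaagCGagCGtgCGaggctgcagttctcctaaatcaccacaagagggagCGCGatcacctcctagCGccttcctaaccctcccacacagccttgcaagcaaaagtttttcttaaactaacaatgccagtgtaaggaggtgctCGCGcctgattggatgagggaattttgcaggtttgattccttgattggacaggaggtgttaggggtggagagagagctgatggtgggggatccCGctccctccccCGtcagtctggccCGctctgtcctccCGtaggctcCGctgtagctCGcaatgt
The 4 windows held 18, 30, 30 and 14 CG pairs, in that order, against a median of 13 over 21262 windows of protein-coding genes and of 19.5 over the 74 windows of the 58 members that had one. The series' title names Tcf4, an E protein whose class binds E-boxes, so E-boxes were searched on both strands. The letters searched were CAGCTG, which is its own reverse complement, then CAGGTG or its reverse complement, and last CATCTG or its reverse complement. None was found in these 4 windows. At least 1 was found in 41.8% of windows of protein-coding genes and in 32.4% of members' windows. It was found in 1 of 5 windows of members called higher and in 5 of 18 of members called lower. The absence of a match says only that these letters are not in the window.

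Recovered depth was 18099114 to 19462516 reads in libraries labelled Phf23-/- and 15647304 to 18241215 in those labelled WT. The targeted gene went against its label. Normalised reads of Phf23 (ENSMUSG00000018572, chromosome 11, 69995777 to 70000009, plus strand; positions here and below are in mm10) were 1607, 1528, 1429 and 1361 in libraries labelled Phf23-/- 1 to 4, against 720.4, 766, 788 and 919 in those labelled WT 1 to 4 (log2 0.89 ± 0.106, limma FDR = 0.000581). Here and below, ± after a log2 fold change is its standard error from limma. Every library labelled Phf23-/- was above every library labelled WT, so all directions below are between libraries as labelled. A gene total does not test for loss of part of the gene. Long transcripts were also counted less in libraries labelled Phf23-/- than in those labelled WT. For each library, deviations of log2 reads from each gene's mean over the 8 libraries were fitted against transcript length. The slope per doubling of length was -0.24, -0.31, -0.09 and 0.04 in libraries labelled Phf23-/-, against 0.26, 0.20, 0.08 and 0.06 in those labelled WT. The exact permutation test, two-sided, gave p = 0.0286, which is the lowest that 4 against 4 allows. Neural stem cell markers were abundant, with a summed level of 158232 to 201303 normalised reads in libraries labelled Phf23-/- and 137616 to 147344 in those labelled WT over 10 genes, and oligodendrocyte lineage markers reached 62813 to 76223 in libraries labelled Phf23-/- and 50412 to 71985 in those labelled WT over 11. Of those 11, 6 were higher, among them Mbp at 193 normalised reads in libraries labelled Phf23-/- and 46.2 in those labelled WT, and Cspg4 was lower, with 1414 in libraries labelled Phf23-/- and 2336 in those labelled WT. Young neuron markers summed to 19831 to 21526 in libraries labelled Phf23-/- and 23015 to 27879 in those labelled WT over 10 genes. Map2, the most abundant of these genes on average, was lower, with 10077 in libraries labelled Phf23-/- and 17464 in those labelled WT. Gap43 (9281 in libraries labelled Phf23-/- and 6493 in those labelled WT) and Rbfox3 (45.01 in libraries labelled Phf23-/- and 15.7 in those labelled WT) were higher, and without Map2 the sum of the other 9 was 9283 to 12124 in libraries labelled Phf23-/- and 7854 to 8208 in those labelled WT. The stem cell list, of which 3 genes were higher and 0 lower, did not overlap between genotypes (exact permutation p = 0.0286). The part of any of these markers in the results below was not tested. Markers of endothelium (6 of 8 genes measured) summed to 87.5 to 108 in libraries labelled Phf23-/- and 74.3 to 124 in those labelled WT, and none of those measured was at 0 throughout. Those of pericytes (4 of 6), microglia (2 of 8), meningeal fibroblasts (4 of 7), ependyma (4 of 5) and astrocytes (8 of 8) overlapped between genotypes, although 4 of the 8 astrocyte genes were higher and 3 lower. For 2 of these lists the overlap rested on the most abundant gene. Without Pdgfra the meningeal sum was 439 to 470 in libraries labelled Phf23-/- and 184 to 280 in those labelled WT. Foxc1 made up most of it, with means of 426 in libraries labelled Phf23-/- and 212 in those labelled WT. Col1a1 and Col1a2 were not called (log2 0.41 and -0.47, limma FDR = 0.497 and 0.595). Without Glul the astrocyte sum was 9453 to 10395 in libraries labelled Phf23-/- and 10673 to 11787 in those labelled WT. The endothelial genes Cdh5 and Cldn5 and the microglial genes Cx3cr1, Csf1r and C1qa were not analysed here. All 8 libraries held reads of the Y-linked gene Ddx3y (726 to 1179) and at most 7.75 normalised reads of Xist.

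Of the 68 members, 5 were higher and 19 lower in libraries labelled Phf23-/-, and 44 did not pass the test (limma-trend on log2(value + 1), Benjamini-Hochberg false discovery rate, FDR, under 0.05 over all 15538 genes). These are 7.35% and 27.9% of the members, against 14.8% and 14.8% of all genes. Those that were higher include Unc50, which is no guidance gene. With scaling by library size only, 5 members were higher and 23 lower, against 11.8% and 17.7% of all genes. The median log2 fold change of the members was -0.29, against 0.00 over all genes. In bulk RNA, fewer cells of a type and less RNA per cell cannot be told apart. Whether called or not, 5 members, Unc50 among them, had every library labelled Phf23-/- above every library labelled WT, and 15 had every one below. Over all genes this held for 13.6% and 14.2%. Of those 15, Slit2 and Sema3a were not called. The number of members called lower was 6 without the library labelled Phf23-/- 1, 10 without WT 1, 9 without WT 2 and 28 without Phf23-/- 4, and with Phf23-/- 1 left out 3 were higher. The numbers called lower are 8.82%, 14.7%, 13.2% and 41.2% of the members, against 6.02%, 6.996%, 6.78% and 18.9% of all genes called lower in the same 4 fits. After each library's own trend with length and GC was taken out, 6 were higher and 12 lower. In that fit 8.82% of the members were higher and 17.6% lower, against 10.5% and 7.86% of all genes. With each library's length slope in the model, 3 members were higher and 3 lower, where 0.656% and 0.438% of all genes were. Without the 4 libraries of steepest slope (labelled Phf23-/- 1 and 2 and WT 1 and 2) 4 were higher and 8 lower, where 4.61% and 4.54% of all genes were. On recovered reads, edgeR called 6 higher and 20 lower of 64 (18.1% and 17.0% of all genes it tested) and DESeq2 6 and 21 of 67 (17.8% and 17.7%).

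**Figure D1:**
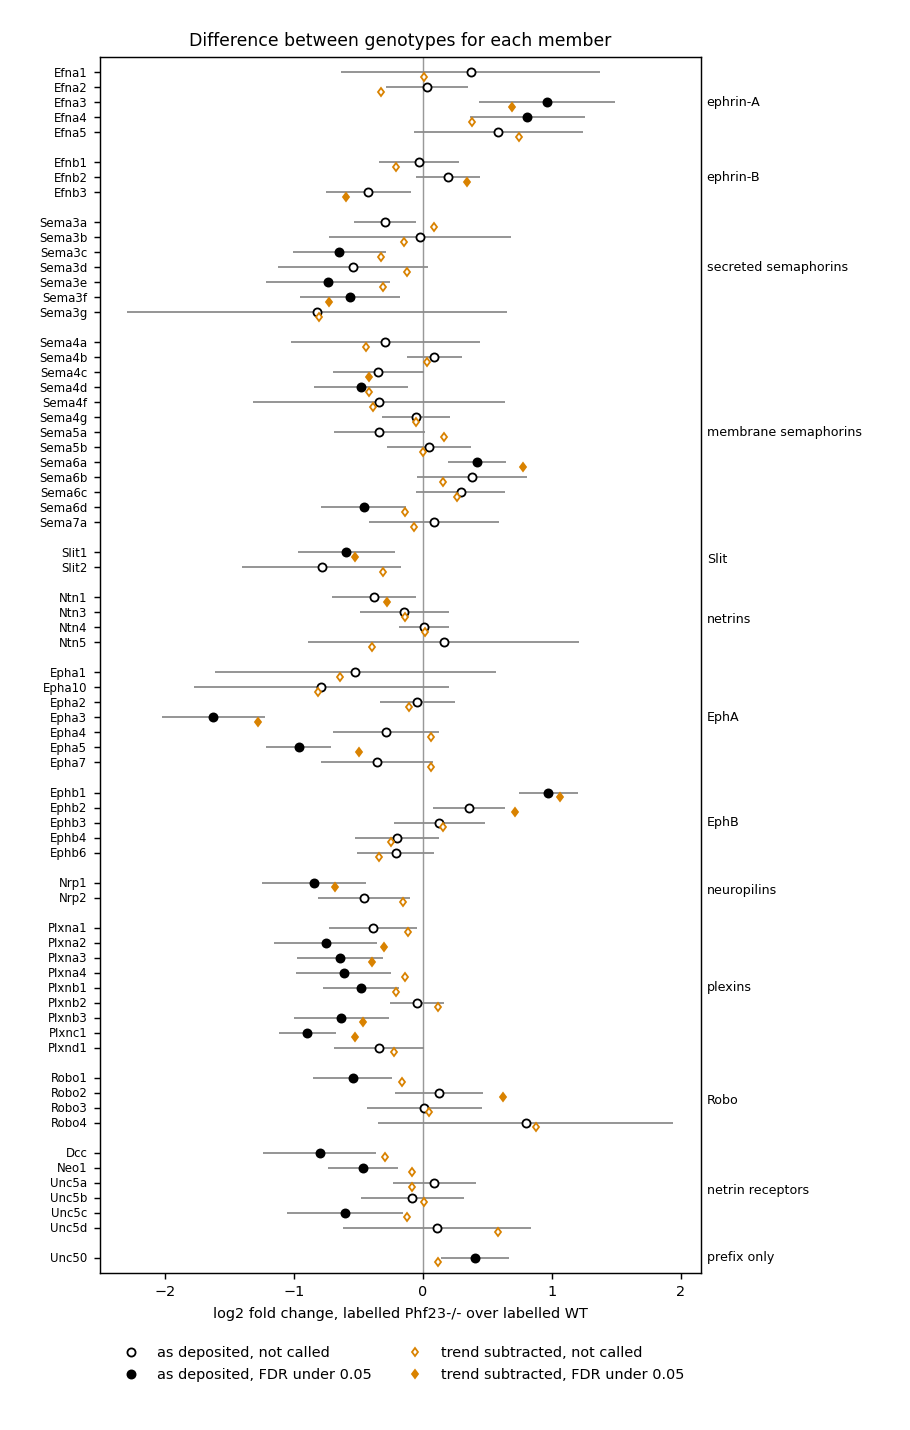
Log2 fold change of each member, libraries labelled Phf23-/- over libraries labelled WT (n = 4 each), by family. Circles are values as deposited with their 95% interval, orange diamonds the same with the length and GC trend subtracted, and filled symbols have an FDR under 0.05; Epha3 lies farthest to the left and Ephb1 farthest to the right among the filled circles.

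As deposited, more receptors than ligands were lower, and receptors also have longer transcripts. Of 33 receptors, 1 was higher and 13 lower (3.03% and 39.4%), with a median log2 fold change of -0.39. Of 34 ligands, 3 were higher and 6 lower (8.82% and 17.6%), with a median of -0.10. Over all genes 14.8% were higher and 14.8% lower, near the share of ligands that were lower. The median length of the longest annotated transcript was 6723 nt for receptors and 4284 nt for ligands. With the length and GC trend subtracted, 3 receptors were higher and 7 lower (9.09% and 21.2%) and 3 ligands higher and 5 lower (8.82% and 14.7%). All genes were at 10.5% higher and 7.86% lower in that fit, and both class medians were -0.14. The Spearman correlation of log2 fold change with transcript length was -0.429 over the 68 members as deposited and 0.0954 with the trend subtracted. Within the classes, as deposited, it was -0.485 over the ligands and weaker, -0.204, over the receptors. It was -0.598 as deposited over the 13265 genes averaging 10 or more. Genes of the same 8 libraries share those libraries' slopes. The difference between the classes was thus seen in values as deposited and not in the medians after subtraction, and it was not tested.

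**Figure D2:**
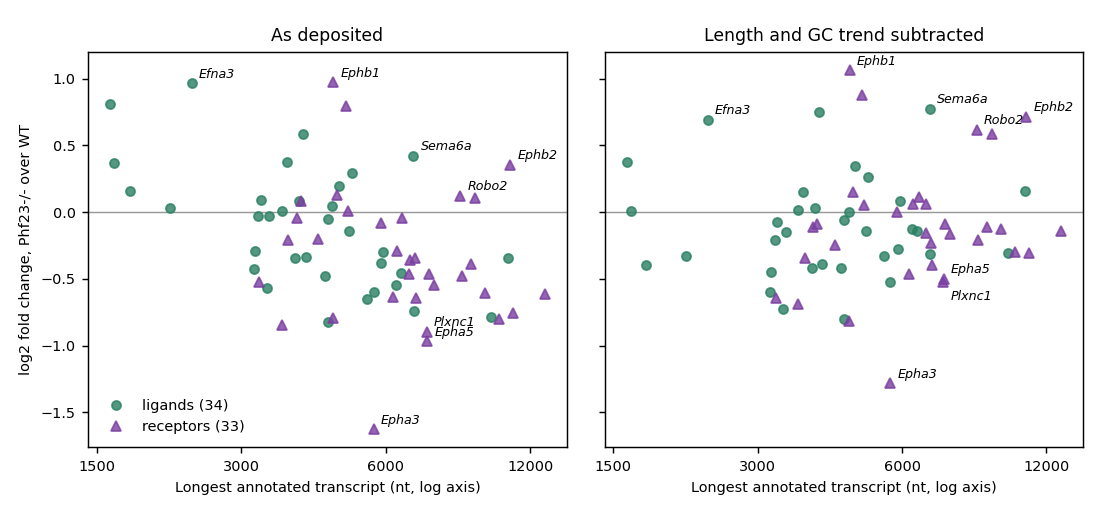
Log2 fold change (libraries labelled Phf23-/- over libraries labelled WT) of 34 ligands and 33 receptors against the length of the longest annotated transcript in nt, on a log axis, as deposited (left) and with the length and GC trend subtracted (right). The downward slope in the left panel is absent in the right one, and Epha3 and Ephb1 stand apart in both.

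The ephrin-A ligands Efna3 and Efna4 were higher in libraries labelled Phf23-/-. Efna3 (ENSMUSG00000028039, chromosome 3, 89313899 to 89322965, minus strand) had 197, 302, 188 and 153 normalised reads in libraries labelled Phf23-/- 1 to 4, against 68.7, 97.0, 141 and 124 in those labelled WT 1 to 4. The lowest of the first group lay just above the highest of the second, so the groups did not overlap. The means were 210.0 ± 64.4 in libraries labelled Phf23-/- and 108 ± 31.6 in those labelled WT (SD, n = 4 each), 1.95-fold higher (log2 0.96 ± 0.243, limma FDR = 0.0139). Its neighbour Efna4 (ENSMUSG00000028040, chromosome 3, 89333390 to 89338028, minus strand) had 148, 158, 106 and 111 normalised reads in libraries labelled Phf23-/- 1 to 4, against 65.8, 75.8, 57.4 and 99.8 in those labelled WT. Here too the groups did not overlap, and the means were 131 ± 26.2 in libraries labelled Phf23-/- and 74.7 ± 18.4 in those labelled WT, 1.75-fold higher (log2 0.81 ± 0.206, limma FDR = 0.0147). Efna1, which lies beside these in the same cluster, had few reads and wide spread (18.9 ± 5.89 in libraries labelled Phf23-/- and 16.7 ± 11.9 in those labelled WT, log2 0.37, limma FDR = 0.581).

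These ephrin-A transcripts are short, and the calls moved with the handling of length. After subtraction of the trend Efna3 was called at 0.69 (limma FDR = 0.0239) and Efna4 was not (log2 0.38, FDR = 0.137). With the slope as a covariate they were at 0.08 and 0.35 (FDR = 0.949 and 0.756), and without the 4 libraries of steepest slope at 0.36 and 0.51 (FDR = 0.288 and 0.179). Efna4 also lost its call without the library labelled Phf23-/- 1 (log2 0.74, FDR = 0.0555). Antisense genes overlap 14.1% of the exon bases of Efna3 and 10.5% of those of Efna4, and the use of strand in counting is not given in the sources used here, so their reads cannot be told apart. Efna2, the most abundant ephrin-A gene per kb, had 221, 265, 209 and 223 normalised reads in libraries labelled Phf23-/-, against 201, 189, 237 and 279 in those labelled WT, with overlapping groups (log2 0.03, 95% interval -0.29 to 0.35, limma FDR = 0.899). Efna5 was at 20.2 ± 3.49 in libraries labelled Phf23-/- and 13.4 ± 3.87 in those labelled WT (log2 0.58, limma FDR = 0.162).

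None of the 3 ephrin-B ligands was called as deposited by limma, where 29.6% of all genes were called in either direction; 1 was lower at an unadjusted p under 0.05, by edgeR and by DESeq2. Efnb2, a membrane ligand that EphB receptors and Epha4 bind, had 774, 718, 852 and 985 normalised reads in libraries labelled Phf23-/-, against 670.4, 738, 753 and 731 in those labelled WT. The groups overlapped (log2 0.19 ± 0.115, limma FDR = 0.219). With the trend subtracted it was called as higher (0.34, FDR = 0.0112). Efnb3, the ephrin-B ligand known for midline repulsion of corticospinal axons, was at 141 ± 15.9 in libraries labelled Phf23-/- and 190.3 ± 28.4 in those labelled WT (log2 -0.42, limma FDR = 0.0521). It was called as lower with the trend subtracted (-0.60, FDR = 0.0119) and by edgeR (FDR = 0.0431). The X-linked gene Efnb1 differed by less than its spread (519.9 ± 78.9 in libraries labelled Phf23-/- and 531 ± 85.3 in those labelled WT, log2 -0.03, limma FDR = 0.895).

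Among EphA receptors, which bind ephrin-A ligands, Epha3 and Epha5 were lower in libraries labelled Phf23-/-. Epha3 (ENSMUSG00000052504, chromosome 16, 63543534 to 63864175, minus strand) had 34.7, 35.8, 29.8 and 38.2 normalised reads in libraries labelled Phf23-/- 1 to 4, against 129.6, 113, 102 and 92.0 in those labelled WT 1 to 4. All 4 of the first group lay under 40 and all 4 of the second above 90. The means were 34.6 ± 3.53 in libraries labelled Phf23-/- and 109 ± 16.0 in those labelled WT (SD, n = 4 each), 3.16-fold lower (log2 -1.63 ± 0.184, 95% interval -2.02 to -1.23, limma FDR = 0.000523). It was the 1 called member with a log2 fold change of at least 1 in size, which 3.58% of all genes had with a call. Epha5 (ENSMUSG00000029245, chromosome 5, 84054761 to 84417382, minus strand), the most abundant EphA gene per kb, had 1148, 996, 1142 and 1369 normalised reads in libraries labelled Phf23-/-, against 2458, 2275, 2396 and 1941 in those labelled WT. The groups did not overlap, and the means were 1164 ± 154 in libraries labelled Phf23-/- and 2267 ± 231 in those labelled WT, 1.95-fold lower (log2 -0.97 ± 0.117, 95% interval -1.22 to -0.71, limma FDR = 0.000635).

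Both calls were kept in all 18 other fits, with smaller changes in some. Epha3 was at -1.28 (limma FDR = 0.000233) with the trend subtracted and at -1.43 (FDR = 0.0321) with the slope covariate. Epha5 has a longest transcript of 7328 nt, and its change shrank by over 1.5 times, to -0.50 (FDR = 0.000823) and -0.64 (FDR = 0.0217). The 5 other EphA genes were not called. Epha4, which also binds ephrin-B ligands, averaged 251 ± 67.1 in libraries labelled Phf23-/- and 302 ± 51.4 in those labelled WT (log2 -0.29, 95% interval -0.70 to 0.12, limma FDR = 0.274). Epha2 was at -0.04 on the log2 scale (95% interval -0.34 to 0.25) and Epha7 at -0.36 (95% interval -0.79 to 0.07). Epha1 and Epha10, which encodes a kinase-dead receptor, had means of at most 13.6.

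Ephb1, an EphB receptor and thus a receptor of ephrin-B ligands, was higher. Ephb1 (ENSMUSG00000032537, chromosome 9, 101922128 to 102354693, minus strand) had 744, 703, 829.9 and 807 normalised reads in libraries labelled Phf23-/- 1 to 4, against 361, 393, 390.4 and 426 in those labelled WT 1 to 4. The groups were far apart, with means of 771 ± 57.9 in libraries labelled Phf23-/- and 393 ± 26.6 in those labelled WT (SD, n = 4 each), 1.96-fold higher (log2 0.97 ± 0.106, 95% interval 0.74 to 1.20, limma FDR = 0.000459). The call was kept in all 18 other fits, at 1.06 after subtraction of the trend (FDR = 1.57e-06) and 1.03 under the slope covariate (FDR = 0.00204).

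Ephb2, chosen after its values were seen, had 1333, 1284, 1708 and 1760.1 normalised reads in libraries labelled Phf23-/-, against 1039, 1168, 1164 and 1354 in those labelled WT. The library labelled WT 4 lay above Phf23-/- 1 and 2, so the groups overlapped (log2 0.36 ± 0.129, limma FDR = 0.0530). It has a transcript of 10902 nt, and it was called as higher with the trend subtracted (0.71, FDR = 0.000120) and without the 4 libraries of steepest slope (0.47, FDR = 0.00121), not with the covariate (0.56, FDR = 0.163). Ephb3, the most abundant EphB gene per kb, had 689, 540.2, 722 and 761 normalised reads in libraries labelled Phf23-/-, against 554, 476, 687 and 796 in those labelled WT, with overlap (log2 0.13, limma FDR = 0.594). Ephb4 and Ephb6, the second of which encodes a kinase-dead receptor, were at -0.20 and -0.21 (FDR = 0.324 and 0.270). Summed per kb of transcript, the 7 EphA genes had 273 ± 40.4 normalised reads per kb in libraries labelled Phf23-/- and 450.0 ± 37.9 in those labelled WT, and the 5 EphB genes 514 ± 53.0 in libraries labelled Phf23-/- and 402 ± 50.3 in those labelled WT (SD, n = 4 each). The EphB sums overlapped, with 452 in Phf23-/- 2 and 470 in WT 4. Epha5 alone gave 159 per kb in libraries labelled Phf23-/- and 309 in those labelled WT. Ephb1 alone gave 165 in libraries labelled Phf23-/- and 84.1 in those labelled WT.

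**Figure D3:**
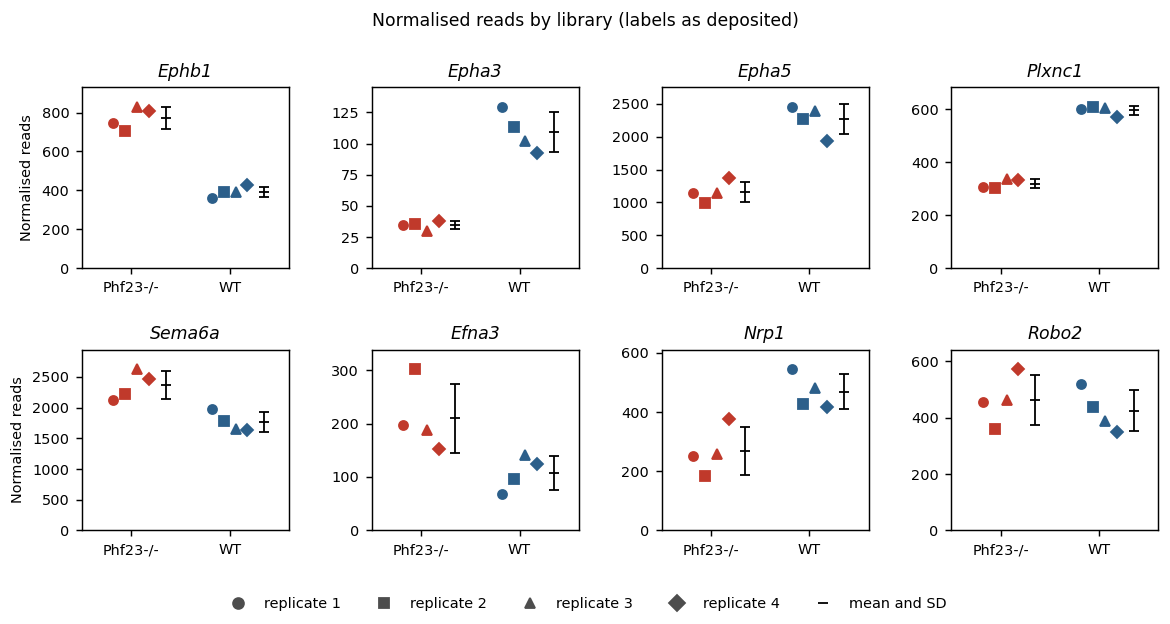
Normalised reads of 8 members in each library, labelled Phf23-/- on the left and WT on the right of each panel, with the mean and SD (n = 4) beside the points; marker shapes give the replicate number. For Ephb1, Epha3, Epha5, Plxnc1, Sema6a, Efna3 and Nrp1 the genotypes do not overlap, and for Robo2 they do.

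Of the 7 secreted class 3 semaphorins 3 were lower (Sema3c, Sema3e and Sema3f), and none was higher by limma, also at an unadjusted p under 0.05, or by edgeR or DESeq2. By limma 14.8% of all genes were lower and 14.8% higher. Sema3c, a ligand of neuropilin and plexin complexes, had 233, 182, 249 and 313 normalised reads in libraries labelled Phf23-/- 1 to 4, against 397, 447, 361 and 316 in those labelled WT. The highest of the first group lay just under the lowest of the second. The means were 244 ± 54.0 in libraries labelled Phf23-/- and 380.2 ± 55.6 in those labelled WT (SD, n = 4 each), 1.56-fold lower (log2 -0.65 ± 0.167, limma FDR = 0.0150). Sema3e, which can bind Plxnd1 without a neuropilin, averaged 41.3 ± 10.7 in libraries labelled Phf23-/- and 68.2 ± 8.97 in those labelled WT (log2 -0.74 ± 0.222, limma FDR = 0.0267). Sema3f, a preferred ligand of Nrp2, averaged 81.2 ± 15.1 in libraries labelled Phf23-/- and 119.9 ± 15.5 in those labelled WT (log2 -0.57 ± 0.178, limma FDR = 0.0319). Neither overlapped between genotypes.

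These 3 calls were not stable. Sema3c lost its call without the library labelled WT 2 or Phf23-/- 1 (log2 from -0.64 to -0.57, FDR from 0.0503 to 0.0544). Sema3e lost it without the library labelled WT 1, WT 2, WT 3, Phf23-/- 1 or Phf23-/- 3 (log2 from -0.77 to -0.60, FDR from 0.0576 to 0.0829), and Sema3f without the library labelled WT 1, WT 3, WT 4, Phf23-/- 1 or Phf23-/- 3 (log2 from -0.59 to -0.47, FDR from 0.06405 to 0.1005). After subtraction of the trend Sema3f was kept (-0.73, FDR = 0.00902) and Sema3c and Sema3e were at -0.33 and -0.31 (FDR = 0.0746 and 0.339). Sema3a, the most abundant of the class per kb and a repellent that acts through Nrp1, had 740.3, 739, 742 and 840.4 normalised reads in libraries labelled Phf23-/-, against 1045, 1034, 851 and 846 in those labelled WT. The groups did not overlap and the test was not passed (log2 -0.30 ± 0.110, limma FDR = 0.0586); with the trend subtracted it was at 0.08. Sema3b and Sema3d were at -0.03 and -0.54 (FDR = 0.961 and 0.143). Sema3g averaged 1.47 ± 1.69 in libraries labelled Phf23-/- and 3.42 ± 2.84 in those labelled WT, and its 0 reads in the library labelled Phf23-/- 1 allow up to 3 by counting error alone.

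Of the 13 membrane semaphorins 1 was higher and 2 lower, where 14.8% of all genes were higher and 14.8% lower. Sema6a, a transmembrane ligand of the plexins Plxna2 and Plxna4, had 2130.4, 2229, 2631 and 2464 normalised reads in libraries labelled Phf23-/- 1 to 4, against 1985, 1786, 1661 and 1629 in those labelled WT 1 to 4. The groups did not overlap, and the means were 2364 ± 227 in libraries labelled Phf23-/- and 1765 ± 161 in those labelled WT (SD, n = 4 each), 1.34-fold higher (log2 0.42 ± 0.104, 95% interval 0.19 to 0.65, limma FDR = 0.0134). Its transcript of 6856 nt is long, and the change was larger after subtraction of the trend (0.77, FDR = 1.69e-05) and under the slope covariate (0.67, FDR = 0.00856). Sema6a kept its call when any 1 library was left out.

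Sema6d, a ligand of Plxna1 and the most abundant semaphorin per kb, had 3852, 3185, 4446 and 5402 normalised reads in libraries labelled Phf23-/-, against 6637, 6082, 5126 and 5081 in those labelled WT. The library labelled Phf23-/- 4 lay within the WT range. The means were 4221 ± 940.4 in libraries labelled Phf23-/- and 5731 ± 760.0 in those labelled WT (log2 -0.46 ± 0.152, limma FDR = 0.0388), with a call that ended without the library labelled WT 1, WT 2, Phf23-/- 1, Phf23-/- 2 or Phf23-/- 3 (log2 from -0.49 to -0.33, FDR from 0.0585 to 0.115). It also ended after subtraction of the trend (-0.14, FDR = 0.228), and under the slope covariate the sign turned (0.15, FDR = 0.687). Sema4d, a ligand of Plxnb1, averaged 147 ± 27.3 in libraries labelled Phf23-/- and 206 ± 36.8 in those labelled WT (log2 -0.48 ± 0.170, limma FDR = 0.0483). It stayed called only without Phf23-/- 4 among the fits that leave out 1 library, ending without the library labelled WT 1, WT 2, WT 3, WT 4, Phf23-/- 1, Phf23-/- 2 or Phf23-/- 3 (log2 from -0.57 to -0.40, FDR from 0.0538 to 0.131), and it was at -0.42 (FDR = 0.0537) with the trend subtracted. Sema4c, chosen after its values were seen, was at -0.35 (limma FDR = 0.126) and was called as lower with the trend subtracted (-0.42, FDR = 0.0265). The 9 other members ran from a log2 fold change of -0.34 for Sema5a to 0.38 for Sema6b. Of these, Sema5b had 1673 ± 349 in libraries labelled Phf23-/- and 1601 ± 201 in those labelled WT, in normalised reads. Sema4b had 1029.9 ± 18.5 in libraries labelled Phf23-/- and 974 ± 90.4 in those labelled WT.

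Of the 9 plexins, the signalling receptors of semaphorins, 6 were lower, and none was higher by limma, also at an unadjusted p under 0.05, or by edgeR or DESeq2. By limma 14.8% of all genes were lower and 14.8% higher. Plxnc1, a receptor of Sema7a, had 307, 302, 336 and 332 normalised reads in libraries labelled Phf23-/- 1 to 4, against 599, 609, 603 and 569 in those labelled WT 1 to 4. The values were tight within each group and far apart between them. The means were 319 ± 17.0 in libraries labelled Phf23-/- and 595 ± 17.8 in those labelled WT (SD, n = 4 each), 1.86-fold lower (log2 -0.90 ± 0.101, 95% interval -1.12 to -0.68, limma FDR = 0.000523). The call was kept in all 18 other fits (-0.53 with the trend subtracted, FDR = 0.00280; -0.78 with the slope covariate, FDR = 0.0114). Its ligand gene Sema7a averaged 87.8 ± 24.4 in libraries labelled Phf23-/- and 81.5 ± 18.6 in those labelled WT (log2 0.09, 95% interval -0.42 to 0.59, limma FDR = 0.806).

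The A-type plexins are the signalling partners of neuropilins and receptors of class 6 semaphorins. Plxna2 had 946, 949, 1325 and 1636 normalised reads in libraries labelled Phf23-/-, against 2477, 2253, 1666 and 1703 in those labelled WT (log2 -0.76 ± 0.185, limma FDR = 0.0128). Plxna3, which is X-linked, had 634, 592, 853 and 957 in libraries labelled Phf23-/-, against 1372, 1118, 1081 and 1094 in those labelled WT (log2 -0.64 ± 0.154, limma FDR = 0.0120). Plxna4 had 168, 155, 217 and 248 in libraries labelled Phf23-/-, against 338, 341, 249 and 271 in those labelled WT (log2 -0.62 ± 0.171, limma FDR = 0.0198). None of these 3 overlapped between genotypes, and in each the library labelled Phf23-/- 4 was the highest of its group. Plxna1, the most abundant A-type plexin, was not called (2406 ± 609.7 in libraries labelled Phf23-/- and 3078 ± 272 in those labelled WT, log2 -0.39, limma FDR = 0.0816).

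Among B-type plexins, the receptors of class 4 semaphorins, Plxnb3 had 231, 213, 312 and 379.6 normalised reads in libraries labelled Phf23-/-, against 403, 401, 473 and 443 in those labelled WT, without overlap (log2 -0.63 ± 0.170, limma FDR = 0.0174). Plxnb1, the receptor of Sema4d, averaged 1668 ± 369 in libraries labelled Phf23-/- and 2288 ± 123 in those labelled WT with overlap (log2 -0.48 ± 0.137, limma FDR = 0.0219). Plxnb2 had 8206, 8368, 8935 and 9717 normalised reads in libraries labelled Phf23-/-, against 9173, 8278, 9202 and 9711 in those labelled WT. It had the highest level per kb of all members, and its groups overlapped (log2 -0.05, 95% interval -0.26 to 0.16, limma FDR = 0.751). Plxnd1, a receptor of Sema3e, was at -0.34 (FDR = 0.124).

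Plexin transcripts are long, with a median of 7302 nt, and most of these calls differed with how length was handled. With the trend subtracted Plxna2, Plxna3, Plxnb3 and Plxnc1 were called (-0.30, -0.40, -0.47 and -0.53; limma FDR = 0.0485, 0.0103, 0.0117 and 0.00280). Plxna4 and Plxnb1 were not (-0.14 and -0.21; FDR = 0.410 and 0.0694). Of the 6, only Plxnc1 was called with the slope covariate, where Plxna2, Plxna3, Plxna4, Plxnb1 and Plxnb3 were at 0.02, -0.06, 0.00, 0.02 and -0.18. Without the 4 libraries of steepest slope the same 5 were again not called, at -0.19, -0.27, -0.16, -0.18 and -0.41. Plxna2 and Plxnb3 lost their calls without the library labelled Phf23-/- 1 (log2 -0.65 and -0.55, FDR = 0.0511 and 0.0644). Plxna4 lost it without the library labelled WT 1, WT 2, Phf23-/- 1 or Phf23-/- 2 (log2 from -0.55 to -0.51, FDR from 0.0504 to 0.0684), and Plxnb1 without the library labelled WT 1, WT 2, Phf23-/- 1 or Phf23-/- 2 (log2 from -0.48 to -0.38, FDR from 0.0519 to 0.0775).

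Of the neuropilins, the ligand-binding partners of A-type plexins, Nrp1 was lower. Nrp1 (ENSMUSG00000025810, chromosome 8, 128358604 to 128503363, plus strand) had 250.3, 183, 259.6 and 377 normalised reads in libraries labelled Phf23-/- 1 to 4, against 546, 427, 483 and 417 in those labelled WT 1 to 4. The groups did not overlap, with Phf23-/- 4 nearest to WT. The means were 267 ± 80.4 in libraries labelled Phf23-/- and 468 ± 59.3 in those labelled WT (SD, n = 4 each), 1.75-fold lower (log2 -0.84 ± 0.187, 95% interval -1.25 to -0.44, limma FDR = 0.00930). It kept its call when any 1 library was left out and after subtraction of the trend (-0.69, FDR = 0.0208), and lost it with the slope covariate (-0.20, FDR = 0.796). The subtraction used a longest annotated transcript of 3645 nt, while the merged exons of Nrp1 hold 9785 nt. The effect of that choice was not tested. Nrp1 is also expressed by endothelium, of whose 6 measured markers Flt1 was lower, with 8.31 normalised reads in libraries labelled Phf23-/- and 30.6 in those labelled WT, and Emcn higher, with 15.1 in libraries labelled Phf23-/- and 5.62 in those labelled WT. The other 4 did not pass the test, with log2 fold changes of 0.89 for Pecam1, 0.24 for Tek, 0.0082 for Kdr and -0.0449 for Esam. Their part in the result was not tested. Nrp2 averaged 548 ± 152 in libraries labelled Phf23-/- and 733 ± 31.3 in those labelled WT, with Phf23-/- 4 inside the WT range (log2 -0.46 ± 0.166, limma FDR = 0.0524).

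Of the Slit ligands, Slit1 was lower as deposited. It had 272, 217, 287 and 416 normalised reads in libraries labelled Phf23-/- 1 to 4, against 414, 393, 497 and 458 in those labelled WT, and Phf23-/- 4 lay inside the WT range. The log2 fold change was -0.60 ± 0.174 (limma FDR = 0.0236) and -0.53 with the trend subtracted (FDR = 0.00765). The call ended without the library labelled WT 1, WT 3, Phf23-/- 1, Phf23-/- 2 or Phf23-/- 3 (log2 from -0.62 to -0.46, FDR from 0.0505 to 0.0719) and with the slope covariate (-0.19, FDR = 0.837). Slit2 had few reads, 18.0 ± 5.61 in libraries labelled Phf23-/- and 31.1 ± 5.47 in those labelled WT, with no overlap between genotypes and no call (log2 -0.78 ± 0.285, limma FDR = 0.0543).

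The Slit receptors Robo1 and Robo2, neighbours on chromosome 16, had log2 fold changes of opposite sign as deposited, and 1 of these was called. Robo1 had 332, 362, 440.1 and 507 normalised reads in libraries labelled Phf23-/- 1 to 4, against 637, 639, 529.9 and 569 in those labelled WT, without overlap (log2 -0.55 ± 0.141, limma FDR = 0.0151). Robo2, chosen after its values were seen, had 456, 359, 464 and 573 in libraries labelled Phf23-/-, against 518, 439.7, 389 and 349.8 in those labelled WT, with broad overlap (log2 0.12 ± 0.159, limma FDR = 0.593). After subtraction of the trend Robo1 was at -0.16 and not called (FDR = 0.202). Robo2 was called as higher with the trend subtracted (0.62, FDR = 0.000620), as it was with the slope covariate (0.68, FDR = 0.0468) and without the 4 libraries of steepest slope (0.48, FDR = 0.0130). Robo1 lost its call without the library labelled WT 2 or Phf23-/- 1 (log2 from -0.51 to -0.45, FDR from 0.0528 to 0.0562). The ratio of Robo2 to Robo1 reads was 1.37, 0.991, 1.05 and 1.13 in libraries labelled Phf23-/- 1 to 4, against 0.814, 0.688, 0.735 and 0.615 in those labelled WT 1 to 4. This ratio did not overlap between groups, which is no test, because it was chosen after its values were seen. Robo3 averaged 62.6 ± 13.9 in libraries labelled Phf23-/- and 61.6 ± 9.14 in those labelled WT (log2 0.01, limma FDR = 0.977). Robo4, a receptor of endothelium, averaged 7.40 ± 1.89 in libraries labelled Phf23-/- and 4.71 ± 3.94 in those labelled WT.

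None of the 4 netrin genes was called as deposited by limma, edgeR or DESeq2, and 1 was lower at an unadjusted p under 0.05 (limma). Ntn1, the classical netrin of the ventral midline, had 4491, 3237, 4890.3 and 5636 normalised reads in libraries labelled Phf23-/-, against 5293, 5554, 5907 and 6672 in those labelled WT. The library labelled Phf23-/- 4 lay inside the WT range (log2 -0.38 ± 0.151, limma FDR = 0.0721), and the gene was called as lower with the trend subtracted (-0.28, FDR = 0.0244). Ntn4, a netrin of basement membranes, averaged 2171 ± 131 in libraries labelled Phf23-/- and 2156 ± 70.5 in those labelled WT (log2 0.01, 95% interval -0.18 to 0.20, limma FDR = 0.956). Ntn3 was at -0.15 (FDR = 0.525). Ntn5, of which 23.4% of exon bases overlap another gene, averaged 4.44 ± 1.44 in libraries labelled Phf23-/- and 4.20 ± 2.46 in those labelled WT.

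The netrin receptors Dcc, Neo1 and Unc5c were lower. Dcc, the receptor of netrin attraction, had 380.3, 267, 356 and 575 normalised reads in libraries labelled Phf23-/- 1 to 4, against 774, 741, 655 and 515 in those labelled WT, and Phf23-/- 4 lay inside the WT range. The means were 395 ± 129.7 in libraries labelled Phf23-/- and 671 ± 116 in those labelled WT (SD, n = 4 each), 1.70-fold lower (log2 -0.80 ± 0.203, limma FDR = 0.0143). Neo1, a relative of Dcc that also binds repulsive guidance molecules, had 1453, 1431, 1812 and 2029 in libraries labelled Phf23-/-, against 2566, 2344, 2157 and 2136 in those labelled WT, without overlap (log2 -0.46 ± 0.125, limma FDR = 0.0175). Unc5c, a receptor of netrin repulsion, averaged 52.3 ± 7.82 in libraries labelled Phf23-/- and 80.8 ± 16.4 in those labelled WT (log2 -0.60 ± 0.208, limma FDR = 0.0444).

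All 3 have long transcripts (10323, 7379 and 9646 nt), and none was called with the trend subtracted (-0.30, -0.09 and -0.12; limma FDR = 0.0986, 0.361 and 0.676) or with the slope covariate (-0.04, -0.02 and -0.22). Dcc lost its call without the library labelled WT 2 (log2 -0.75, FDR = 0.05004), Neo1 without the library labelled WT 1, WT 2 or Phf23-/- 1 (log2 from -0.45 to -0.40, FDR from 0.0549 to 0.0652) and Unc5c without the library labelled WT 1, WT 2, WT 3, Phf23-/- 1, Phf23-/- 2 or Phf23-/- 3 (log2 from -0.67 to -0.50, FDR from 0.0565 to 0.130). Unc5a, Unc5b and Unc5d were at 0.09, -0.08 and 0.11 (limma FDR = 0.698, 0.764 and 0.835). Unc50, which is no guidance gene and has a transcript of 1414 nt, had 967, 1085, 818 and 808 normalised reads in libraries labelled Phf23-/-, against 654, 633, 784 and 700.5 in those labelled WT, without overlap (log2 0.40 ± 0.122, limma FDR = 0.0280). It lost its call without the library labelled WT 1, WT 2, Phf23-/- 1 or Phf23-/- 2 (log2 from 0.32 to 0.38, FDR from 0.0665 to 0.0895) and with the trend subtracted (0.12, FDR = 0.321).

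Levels spanned over 3 orders of magnitude per kb of transcript, and most families had 1 or 2 leading genes. Plxnb2 led with 1355 ± 105 normalised reads per kb in libraries labelled Phf23-/- and 1399 ± 91.7 in those labelled WT (SD, n = 4 each). Ntn1 followed with 777 ± 171 in libraries labelled Phf23-/- and 997 ± 102 in those labelled WT, and Sema6d with 655 ± 146 in libraries labelled Phf23-/- and 889 ± 118 in those labelled WT. At the other end 4 members, Epha10, Robo4, Ntn5 and Sema3g, had fewer than 10 normalised reads on average, so their folds rest on a few reads. Summed over the class, ligands had 4516 ± 503 normalised reads per kb in libraries labelled Phf23-/- and 4919 ± 172 in those labelled WT, and receptors 3785 ± 535 in libraries labelled Phf23-/- and 4490.1 ± 134 in those labelled WT (SD, n = 4 each). The leading gene of 9 of 12 families was the same by the length of merged exons; by that length Efnb1, Ephb2 and Nrp2 led in place of Efnb2, Ephb3 and Nrp1.

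**Figure D4:**
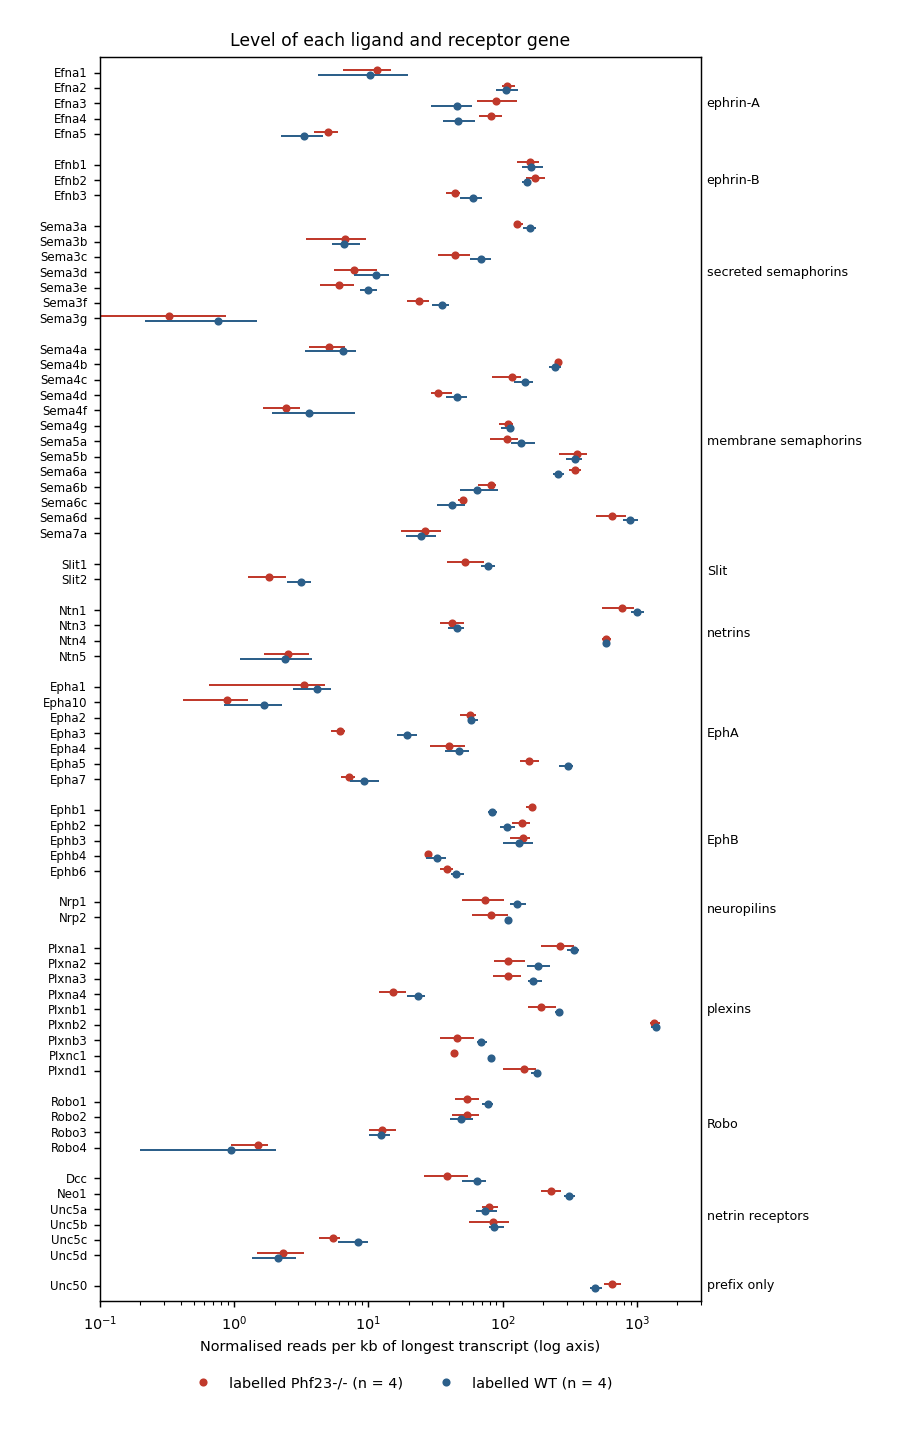
Level of each member in normalised reads per kb of its longest annotated transcript (log axis), by family. Points are means and lines run from the lowest to the highest of 4 libraries, labelled Phf23-/- in red above WT in blue; the line of Sema3g reaches a library with 0 reads and is cut at the axis. Plxnb2 is the highest and Sema3g the lowest.

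Pairs of members of 1 family, chosen after their values were seen, differed in their ratio of reads between genotypes. Their longest annotated transcripts are of like length, which does not hold for merged exons or GC in every pair. Sema6a to Sema6d (6856 and 6444 nt) stood at 0.553, 0.700, 0.592 and 0.456 in libraries labelled Phf23-/- 1 to 4, against 0.299, 0.294, 0.324 and 0.321 in those labelled WT 1 to 4. Ephb1 to Ephb3 (4667 and 4748 nt) stood at 1.08, 1.30, 1.15 and 1.06 in libraries labelled Phf23-/-, against 0.652, 0.825, 0.568 and 0.535 in those labelled WT. Epha5 to Epha4 (7328 and 6328 nt) stood at 5.47, 5.47, 4.06 and 4.15 in libraries labelled Phf23-/-, against 6.92, 6.97, 8.32 and 8.21 in those labelled WT. The merged exons of Epha5 and Epha4 hold 16739 and 8054 nt, and their transcript GC is 40.1% and 45.6%. None of these ratios overlapped between genotypes, which is no test, because the pairs were chosen with their values known. How many other pairs do the same was not counted. Epha5 and Epha4 both had negative log2 fold changes, and Ephb1 and Ephb3 both had positive ones. Such a ratio shows unequal change without saying which gene changed.

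Of a list of 80 genes that act downstream of these receptors or modulate them, 78 were measured, and 11 were higher and 28 lower (14.1% and 35.9%, beside 14.8% each over all genes; median log2 fold change -0.20). With the trend subtracted 11 were higher and 15 lower (14.1% and 19.2%, beside 10.5% and 7.86% over all genes). Cdk5, a kinase of migrating neurons, had 1327 ± 197 normalised reads in libraries labelled Phf23-/- and 792 ± 124 in those labelled WT (log2 0.75, limma FDR = 0.00533). The adaptor gene Gipc1 was at 0.95, the actin regulator gene Vasp at 0.63 and the kinase gene Src at 0.51 (FDR = 0.00748, 0.0100 and 0.0107). Among those that were lower, Draxin, which encodes a secreted ligand of Dcc, had 178 ± 16.9 in libraries labelled Phf23-/- and 299 ± 46.8 in those labelled WT (log2 -0.73, limma FDR = 0.00619). Cdk5r1, which encodes an activator of Cdk5, was at -0.63 and the exchange factor gene Trio at -0.70 (FDR = 0.00712 and 0.00619). These 7 genes kept their calls when any 1 library was left out and with the trend subtracted. In that last fit Cdk5, Gipc1, Vasp and Trio moved by over 1.5 times, to 0.48, 0.40, 0.30 and -0.28. With the slope covariate 0 of the 78 were called by limma, where 1.09% of all genes were, and 3 were higher and 3 lower at an unadjusted p under 0.05; without the covariate edgeR called 12 higher and 29 lower. The numbers fell to 5 higher and 10 lower without the library labelled Phf23-/- 1, 5 and 13 without WT 1, and 5 and 11 without WT 2. Over all genes, 6.10% were higher and 6.02% lower in the first of those fits, 7.09% and 6.996% in the second, and 6.78% each way in the third.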

How the data were processed

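Polyadenylated RNA of 8 neurosphere libraries was sequenced. The mm10 build and the tools STAR 2.7.1a, fastp 0.23.4, FastQC 0.12.1 and DESeq2 1.38.3 are listed per the submitters' processing notes. How reads were counted, and any gene filter, is not given in the sources used here. Deposited signal values of the authors are counts divided by 1 size factor per library: whole reads were recovered for 100% of values (tolerance 1e-04), 15647304 to 19462516 per library. Of 15602 rows, 64 duplicates were dropped, leaving 15538 genes. Members and lists were chosen with earlier results of these data known.

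Values were tested as log2(value + 1) with limma 3.58.1 (trend, robust; R 4.3.3), libraries labelled Phf23-/- against WT. Fold changes on this scale understate those of low genes; folds of means are unlogged. Alternatives were edgeR 4.0.16 and DESeq2 1.42.0 on recovered reads, TMM or library-size scaling, a replicate block, each library left out, only genes averaging at least 10, 0.1 as the pseudocount, and 3 treatments of length: a loess trend (span 0.3) on length and GC of the longest GENCODE transcript subtracted per library, its slope as a covariate, and the 4 libraries of steepest slope left out. The fit was tested on simulated data. Named genes were the called members of lowest FDR, up to 12 in each direction, the most abundant member per kb of each family, and 4 genes in each direction of the signalling list, of which 1 is not reported here; 4 more were named after their values were seen and others serve to account for the members. Precision is limited by depth and by 4 libraries per genotype, and counting intervals cover counting error only.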

Additional observations from a re-analysis of the deposited data

Results flagged for a closer look

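In 6 of 136 sets of 4 libraries (68 members in each genotype), 1 library stood apart from the other 3 by a gap that took up more of the range than Dixon's 95% critical value for 4 values; chance alone gives about 1 in 20. In the libraries labelled Phf23-/-, number 4 was highest for Sema3a (740.3, 739, 742 and 840.4 normalised reads, gap 0.968 of the range), Sema4d (132, 136, 132 and 188, gap 0.929) and Ephb4 (118, 117, 117 and 130.1, gap 0.885). In the libraries labelled WT, number 1 was highest for Sema4f (32.4, 8.64, 10.1 and 7.75, gap 0.904) and Plxna3 (1372, 1118, 1081 and 1094, gap 0.872), and number 4 for Epha2 (219, 218, 223 and 256, gap 0.872).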

How the results depend on the processing

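Over 522 values, those of 29 named members under 18 alternatives, 408 kept direction and call, 75 lost a call, 26 gained one and 13 changed sign. These 29 include the 4 named after their values were seen (Ephb2, Robo2, Efnb3 and Sema4c). All 4 gained calls in some alternatives, which raises the number gained. Nothing in the labels says that the numbers pair the libraries. Same-number correlations of deviations were negative (-0.33, -0.13, -0.19 and -0.28), which does not exclude a batch shared by number. With a replicate block 1 member was higher and 3 lower, 0 ligands were higher and 0 lower, and 3 receptors were lower. With that block 0 signalling genes were higher and 1 lower, where 0.972% and 1.17% of all genes were. Sema6a was not called with the block (limma FDR = 0.0711). At an unadjusted p under 0.05 the block gave 3 ligands higher and 10 lower and 12 signalling genes higher and 32 lower. With the slope covariate 3 members were higher and 3 lower, 1 ligand higher and 0 lower, 2 receptors higher and 3 lower, and 0 signalling genes higher and 0 lower. At an unadjusted p under 0.05 the covariate fit had 2 ligands higher and 1 lower. With the trend subtracted 12 members and 15 signalling genes were lower, and 3 receptors were higher and 7 lower. Without the 4 libraries of steepest slope 4 members were higher and 8 lower, 1 ligand was higher and 4 lower, 3 receptors were higher and 4 lower, and 3 signalling genes were higher and 8 lower. With a log2 fold change of at least 1 required, 0 members were higher and 1 lower, 0 ligands higher and 0 lower, 0 receptors higher and 1 lower, and 0 signalling genes higher and 1 lower. edgeR, DESeq2 and a minimum mean of 10 each called 2 receptors higher. The receptor median was -0.14 with the trend subtracted, 0.0141 with the covariate and -0.16 without the 4 libraries.

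With 1 library left out, 3 to 7 members were higher and 6 to 28 lower, 2 to 4 ligands higher and 0 to 12 lower, 1 to 2 receptors higher and 6 to 16 lower, and 5 to 12 signalling genes higher and 10 to 32 lower; medians ran from -0.17 to -0.09 for ligands and from -0.52 to -0.26 for receptors. Over all 68 members, signs changed for 23 with the covariate, for 10 with the trend subtracted and for 13 without the 4 libraries. Of the 24 called members, the sign changed for 4 with the covariate, which include Plxnb1 (0.0163), and for 0 in the other 2 of these fits. Among the 29 named members, signs changed with the covariate for Plxna2 (0.0244), Plxna4 (0.0004), Sema6d (0.15) and Plxnb2 (0.0561), and with the trend subtracted for Plxnb2 (0.11) and Sema3a (0.0829). Efna2 was at -0.0318 by library size, -0.33 with the trend subtracted, -0.29 with the covariate, -0.25 without the 4 libraries, and from -0.0508 to 0.1355 with 1 library left out, below 0 without WT 1, WT 2 or Phf23-/- 2. The cause was not tested. Depth limits the 4 members with a mean under 10 normalised reads.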
